A study of Mus musculus with 2 samples.

Results

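The Zbtb genes of the mouse encode transcription factors with a BTB domain and C2H2 zinc fingers, and 39 of them were examined among 20661 protein-coding genes. They were chosen by symbol: every RefSeq protein-coding gene of build mm10 on chromosomes 1 to 19 whose name is Zbtb followed by a number and, in some, a letter a to c. The data were islands, stretches of chromatin enriched in immunoprecipitated DNA, for the histone deacetylases Hdac1 and Hdac2. The cells were cultured nephron progenitor cells, the self-renewing cells that form nephrons, isolated from the kidneys of wild-type mouse embryos at E16.5. There was 1 library for each antibody, made with 0.5 µg of Hdac1 antibody or 1 µg of Hdac2 antibody per the file labels, so antibody and amount cannot be told apart. With no replicate there is no error between samples and no test, and the counts and medians are given as descriptions beside the same measure over all protein-coding genes.

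In a BTB zinc finger protein the amino-terminal BTB domain forms dimers and can bind corepressors such as Sin3, and the carboxy-terminal zinc fingers bind DNA. Histone deacetylases of class I, to which Hdac1 and Hdac2 belong, are subunits of or partners of these corepressor complexes and remove acetyl groups from histone tails. Many family members are known as repressors that fix cell fates, among them Bcl6 and Plzf (Zbtb16). The islands describe where the deacetylases lay over the genes that encode these factors, not where the factors bound, and they do not measure expression.

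The deposited lists held 30182 Hdac1 islands of 2.0 kb median width and 20307 Hdac2 islands of 2.8 kb. The read depth is unknown. Each island carries 1 deposited value, which is either a p-value or a q-value, and it was used only to order the islands within its own list, where rank 1 is the lowest value and such an island is called the strongest. Of the nephron progenitor markers looked up, the 7 on those chromosomes (Six2, Osr1, Eya1, Sall1, Wt1, Meox1 and Crym) all had an Hdac1 island at a gene end and 5 had an Hdac2 island. The counts were 4 and 3 of 4 stroma markers, 2 and 1 of 4 ureteric bud markers, and 1 and 0 of 4 endothelial and blood markers, so they did not set progenitor apart from stroma markers. Over all genes the shares were 62.6% and 33.4%.

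Hdac1 islands lay at nearly every Zbtb gene, and Hdac2 islands at about 3 in every 4. An Hdac1 island lay within 1 kb of either end of 36 of the 39 genes (92.3%), against 62.6% of all protein-coding genes. An Hdac2 island lay there at 30 (76.9%), against 33.4% of all genes. All 30 had Hdac1 as well, as did 6698 of the 6906 genes with Hdac2 at an end, and 32.4% of all genes had both. The 6 with Hdac1 alone were Zbtb49, Zbtb24, Zbtb4, Zbtb26, Zbtb6 and Zbtb3. Neither was found at Zbtb46, Zbtb8b or Zbtb38, and no Zbtb gene had Hdac2 alone. Islands touching any part of the gene were found at 38 genes for Hdac1 (67.6% of all genes) and at 32 for Hdac2 (40.3% of all genes). Zbtb8b, whose nearest islands were 8.2 kb (Hdac1) and 18.6 kb (Hdac2) away, was the exception for Hdac1. Just inside the 1 kb window, the farthest end island counted lay 0.934 kb from its gene (Hdac2, at Zbtb12). Just outside it, at genes with no end island in that list, an Hdac1 island lay 2.739 kb from Zbtb46 and an Hdac2 island 2.1 kb from Zbtb6.

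Over the start sites themselves the same contrast with all genes was seen. RefSeq windows of 250 bases before to 50 after a transcription start (mm10) were matched for 34 of the 39 genes, with 47 start sites. Zbtb10, Zbtb16, Zbtb40, Zbtb48 and Zbtb7c had no entry. An Hdac1 island covered a start site of 30 of the 34 (61.9% of all genes with an entry), an Hdac2 island one of 24 (32.5%), and both were present at 24 (31.9%). The windows of 7 genes are printed because they span the range of the data, from the strongest genes with both islands to genes with none. Each runs 5′ to 3′ on the gene's strand. Capitals mark matches, on either strand, to short promoter motifs: GGGCGG and its reverse complement CCGCCC (the GC box bound by Sp1), CACGTG (the E-box), CCGGAAG with its complement CTTCCGG (an Ets site), and CCAAT with its complement ATTGG.
The strongest genes with both islands were Zbtb7a (chr10:81136021-81136320, plus strand) and the head-to-head genes Zbtb1 (chr12:76370270-76370569, plus strand) and Zbtb25 (chr12:76369511-76369810, minus strand).
Zbtb7a: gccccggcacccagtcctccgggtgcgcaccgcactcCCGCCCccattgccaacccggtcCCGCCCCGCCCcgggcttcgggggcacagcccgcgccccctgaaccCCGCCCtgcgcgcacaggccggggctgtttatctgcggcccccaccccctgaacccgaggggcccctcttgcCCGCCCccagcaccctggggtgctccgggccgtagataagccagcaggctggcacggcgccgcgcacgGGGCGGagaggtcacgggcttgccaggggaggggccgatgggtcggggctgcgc
Zbtb1: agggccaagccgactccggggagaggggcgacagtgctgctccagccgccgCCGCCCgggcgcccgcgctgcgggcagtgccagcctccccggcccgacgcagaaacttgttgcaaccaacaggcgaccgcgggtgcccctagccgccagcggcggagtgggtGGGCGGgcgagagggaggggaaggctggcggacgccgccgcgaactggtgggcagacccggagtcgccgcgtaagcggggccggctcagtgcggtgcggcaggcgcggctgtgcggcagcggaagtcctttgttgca
Zbtb25: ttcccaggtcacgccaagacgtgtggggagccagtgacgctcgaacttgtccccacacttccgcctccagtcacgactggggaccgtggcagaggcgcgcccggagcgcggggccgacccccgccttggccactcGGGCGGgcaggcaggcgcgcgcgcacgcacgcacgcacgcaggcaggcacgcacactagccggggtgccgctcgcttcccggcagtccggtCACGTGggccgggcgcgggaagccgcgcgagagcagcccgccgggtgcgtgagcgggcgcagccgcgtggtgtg
The strongest genes with Hdac1 alone were Zbtb49 (chr5:38220405-38220704, minus strand) and Zbtb24 (chr10:41450108-41450407, plus strand).
Zbtb49: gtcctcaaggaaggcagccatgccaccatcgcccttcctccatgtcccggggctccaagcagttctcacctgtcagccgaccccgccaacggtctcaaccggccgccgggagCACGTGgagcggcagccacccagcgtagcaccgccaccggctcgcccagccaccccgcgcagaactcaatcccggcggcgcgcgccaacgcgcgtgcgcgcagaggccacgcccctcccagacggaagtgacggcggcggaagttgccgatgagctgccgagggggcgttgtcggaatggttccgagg
Zbtb24: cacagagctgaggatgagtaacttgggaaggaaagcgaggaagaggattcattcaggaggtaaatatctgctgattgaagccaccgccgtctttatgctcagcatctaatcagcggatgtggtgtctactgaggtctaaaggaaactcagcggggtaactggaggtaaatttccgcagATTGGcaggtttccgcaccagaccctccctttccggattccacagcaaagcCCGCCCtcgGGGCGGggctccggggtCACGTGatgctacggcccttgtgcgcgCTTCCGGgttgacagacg
The start site of Zbtb38 at the 5′ end of the gene (chr9:96731626-96731925, minus strand) was covered by neither antibody's islands, and another start site inside the gene (chr9:96719801-96720100, minus strand) by both; the inner window was added after its values were seen. The window of Zbtb46 (chr2:181424339-181424638, minus strand) was covered by neither, and its start site lies 68874 bp from the annotated 5′ end.
Zbtb38 end: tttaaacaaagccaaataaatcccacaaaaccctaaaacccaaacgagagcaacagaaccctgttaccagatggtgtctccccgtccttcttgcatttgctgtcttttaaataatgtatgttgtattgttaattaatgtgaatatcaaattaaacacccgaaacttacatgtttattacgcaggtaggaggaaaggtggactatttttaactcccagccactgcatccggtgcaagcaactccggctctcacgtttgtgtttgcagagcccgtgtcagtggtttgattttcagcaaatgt
Zbtb38 inner: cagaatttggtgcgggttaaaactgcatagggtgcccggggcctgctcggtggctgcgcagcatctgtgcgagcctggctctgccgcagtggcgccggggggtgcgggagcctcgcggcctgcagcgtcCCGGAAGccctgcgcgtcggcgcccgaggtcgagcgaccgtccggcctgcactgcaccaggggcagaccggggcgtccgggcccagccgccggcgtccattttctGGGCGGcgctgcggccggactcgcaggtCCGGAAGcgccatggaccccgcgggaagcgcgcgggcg
Zbtb46: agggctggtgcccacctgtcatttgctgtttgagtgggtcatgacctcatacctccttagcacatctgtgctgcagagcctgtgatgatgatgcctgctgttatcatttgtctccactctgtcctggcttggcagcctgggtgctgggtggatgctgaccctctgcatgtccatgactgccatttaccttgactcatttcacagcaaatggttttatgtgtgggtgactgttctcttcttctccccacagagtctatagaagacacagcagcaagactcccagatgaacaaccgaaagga
The windows covered by both islands are rich in CpG, with 31 CpG in Zbtb7a, 39 in Zbtb1, 44 in Zbtb25 and 41 in the inner window of Zbtb38. The uncovered windows of Zbtb38 and Zbtb46 hold 8 and 1.

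**Figure D1:**
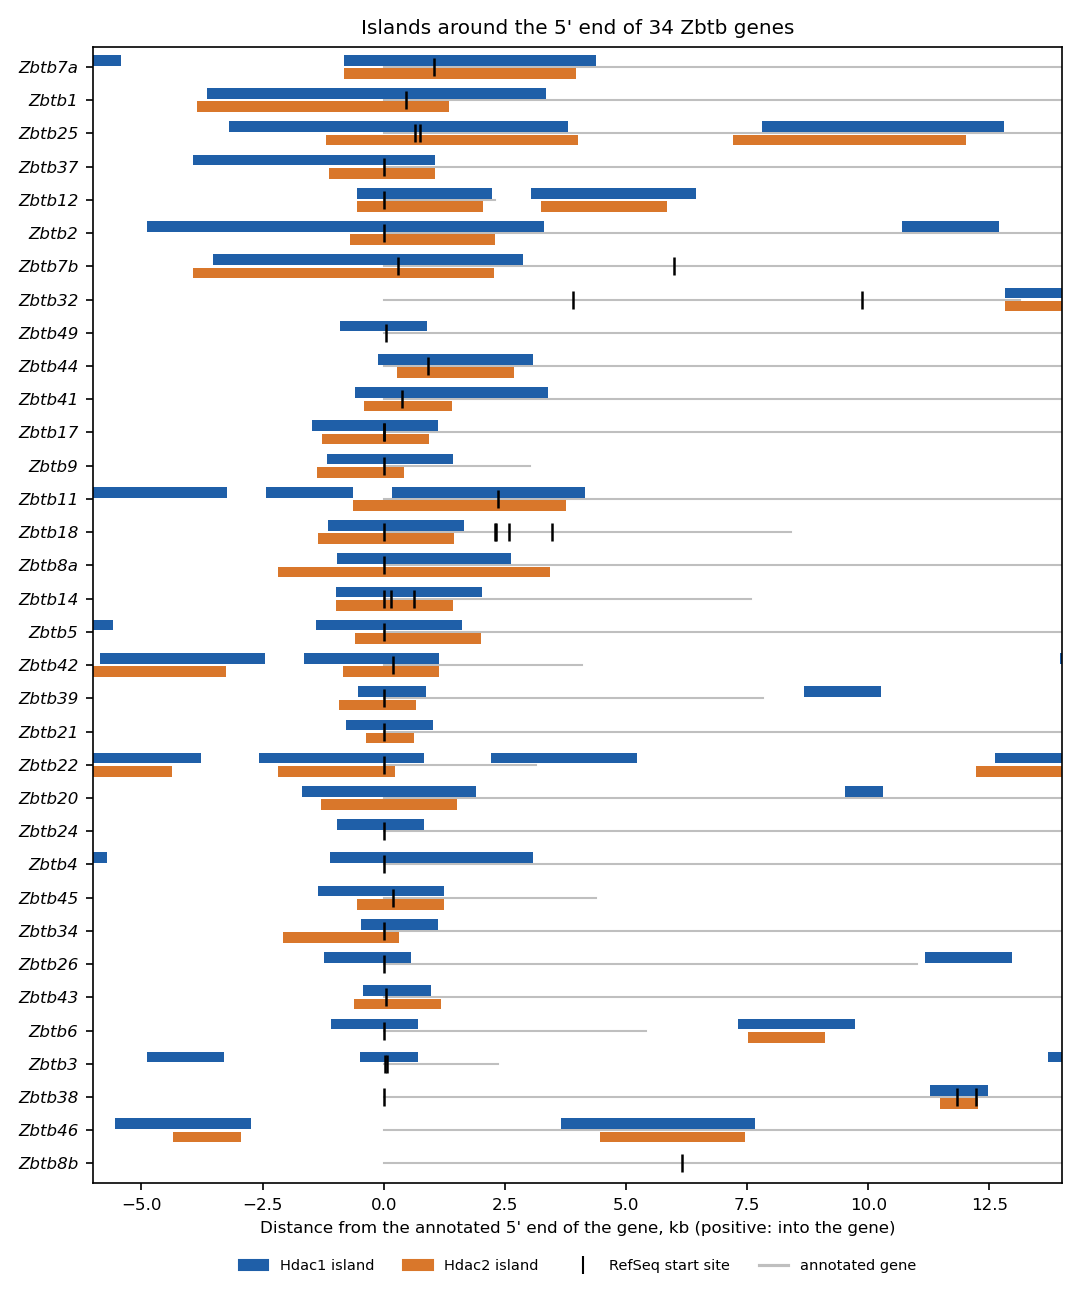
Islands around the annotated 5′ end of the 34 Zbtb genes with a strand in the RefSeq table, ordered by the rank of the strongest Hdac1 end island; the horizontal axis is distance in kb, blue bars are Hdac1 islands, orange bars Hdac2 islands, black ticks start sites and grey lines the gene. Both colours lie over the 5′ end in most rows, only blue at Zbtb49, Zbtb24, Zbtb4, Zbtb26, Zbtb6 and Zbtb3, and no bar over the 5′ end of Zbtb32, Zbtb38, Zbtb46 and Zbtb8b.

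Of the 7 members known for roles in blood and immune lineages, 6 had both islands at an end. Both lay at an end of 76.9% of the Zbtb genes and 32.4% of all genes. The median ranks of these 6 were 876.5 for Hdac1 and 1222.5 for Hdac2. Over the Zbtb genes with an end island the medians were 2787.5 and 9219.5, and over all such genes 6165.5 and 10206.5. Zbtb7a (LRF), which directs B against T cell fate and silences fetal globin in erythroid cells, had the strongest Hdac1 end island of all the Zbtb genes. It spanned chr10:81134401-81139600, was 5.2 kb wide, and carried a value of 2.47e-292 at rank 100. The Hdac2 island shared its start, ended at base 81139200, and had a value of 2.53e-18 at rank 1162. Both therefore covered the window printed above with its 6 GC boxes, and ran on into the gene.

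Zbtb1, needed for T cell development, and Zbtb25 lie head to head and share 1 island of each list. The shared Hdac1 island (chr12:76366401-76373400) was 7.0 kb wide with a value of 2.01e-189 at rank 393. The shared Hdac2 island (chr12:76366201-76371400) was 5.2 kb wide, and its value of 2.69e-23 at rank 574 was the lowest of any Zbtb end island in that list. The pair gives 2 genes but 1 observation per library.

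Zbtb7b (ThPOK), the factor that commits thymocytes to the CD4 lineage, had the broadest Hdac2 end island. It was 6.2 kb wide (chr3:89391401-89397600, value 2.98e-21, rank 742), and the Hdac1 island over the same 5′ end was 6.4 kb wide (chr3:89390801-89397200, value 1.09e-149, rank 777). The covered start site holds only 8 CpG, the lowest number of any start site covered by both. A further Hdac1 island of 1.8 kb at its 3′ end also lay at an end of Dcst2 and had no Hdac2 island over it.

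Zbtb16 (Plzf), required for natural killer T cells and for renewal of spermatogonial stem cells, had an Hdac1 end island of 4.2 kb (value 7.91e-137, rank 999) and an Hdac2 island of 2.2 kb (value 1.01e-17, rank 1283). Zbtb17 (Miz1), a partner of Myc, had Hdac1 at rank 1777 and Hdac2 at rank 11887, so it stood high in only the former list. The islands of Zbtb32, a repressor of cytokine genes in lymphocytes, lay at its 3′ end, within 1 kb of an end of Kmt2b as well, at ranks 976 and 5507. Neither of its start sites was covered. Zbtb46, a marker factor of classical dendritic cells, was the 1 gene of the 7 with no island at an end.

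Of the 3 members linked to methylated DNA, 2 had Hdac1 and 0 had Hdac2 at an end, against 62.6% and 33.4% of all genes. Zbtb4, which like Kaiso binds methylated CpG, had an Hdac1 island of 4.2 kb (value 1.84e-51, rank 6243). Zbtb24, mutated in a form of ICF syndrome with loss of centromeric DNA methylation, had one of 1.8 kb (value 1.61e-52, rank 6098). Zbtb38, another methyl-CpG binding protein, had none at its ends, but islands of both lists over start sites inside the gene. The printed window of Zbtb24 holds 18 CpG and 2 GC boxes, and that of Zbtb4 holds 22 CpG.

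Both telomere-binding members had both islands at an end, as did 76.9% of the Zbtb genes and 32.4% of all genes. The Hdac1 end island of Zbtb10 stood next after those of Zbtb7a and of the pair Zbtb1 and Zbtb25, at 4.0 kb with a value of 2.85e-187 (rank 406). Its Hdac2 island was 3.8 kb wide (value 5.43e-12, rank 4341). Zbtb48 (Tzap), which trims long telomeres, had Hdac1 at rank 4941. Its Hdac2 island, at rank 18496 with a value of 1.37e-04, was among the 3 weakest of the Zbtb end islands in that list. The islands of Zbtb48 also lay at an end of Tas1r1.

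All 4 members with roles in brain, muscle or liver had both islands at an end, as did 76.9% of the Zbtb genes and 32.4% of all genes. The median Hdac1 rank of the 4 was 5435.0, against 2787.5 for the Zbtb genes and 6165.5 for all genes with an end island. Zbtb18 (Rp58), needed for cortical neurogenesis, had ranks of 2496 for Hdac1 and 9941 for Hdac2 and islands of 2.8 kb in both lists. Zbtb20, a repressor of alpha-fetoprotein in liver and a factor of hippocampal development, was ordered differently by the lists, with Hdac1 at rank 5993 and Hdac2 at rank 1612. Zbtb42, a skeletal muscle factor, stood at 4877 and 14979. Zbtb45, which acts in glial differentiation, stood at 7000 and 13526.

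Of the 4 members linked to the cell cycle, p53 and Cdkn1a, all had Hdac1 and 3 had Hdac2 at an end. Over the Zbtb genes the shares were 92.3% and 76.9%, and over all genes 62.6% and 33.4%. Zbtb2, a repressor in the p53 pathway, had the broadest Hdac1 end island of the Zbtb genes. It covered 8.2 kb (chr10:4384801-4393000, value 1.55e-156, rank 683), and the Hdac2 island inside it was 3.0 kb wide (value 7.93e-08, rank 11504) and covered 36.6% of it. Zbtb7c had Hdac1 at rank 1733 and Hdac2 at rank 2550. Zbtb5, a repressor of Cdkn1a, had both at weaker standing, at ranks 4616 and 15866. Zbtb49, an activator of Cdkn1a, was the clearest case of Hdac1 alone: its island (chr5:38219601-38221400, 1.8 kb) had a value of 1.29e-125 at rank 1230 and its window holds 36 CpG. That island also lay at an end of Lyar.

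Among the 19 other members 18 had Hdac1 at an end (94.7%) and 15 had Hdac2 (78.9%). These shares were near the 92.3% and 76.9% of the Zbtb genes, and those of all genes were 62.6% and 33.4%. Zbtb37 was the gene with the largest gap between its standings, with an Hdac1 island of 5.0 kb (value 7.47e-164, rank 595) and an Hdac2 island of 2.2 kb (value 1.60e-05, rank 16860), the third lowest of the 30 genes by their strongest Hdac2 end island. Zbtb44 stood high in both lists, with Hdac1 of 3.2 kb (value 7.96e-118, rank 1458) and Hdac2 of 2.4 kb (value 2.26e-20, rank 860). Zbtb14 stood higher for Hdac2 (2.4 kb, value 1.09e-16, rank 1545) than for Hdac1 (3.0 kb, value 7.39e-74, rank 3763), as did Zbtb21 (rank 1863 against 5866). Zbtb8a, Zbtb9, Zbtb11, Zbtb39 and Zbtb40 had both islands, with Hdac1 ranks from 2117 to 5712 and Hdac2 ranks from 8498 to 14674. Zbtb34 and Zbtb43 had both at Hdac1 ranks 7144 and 8914, the latter the third lowest of the 36 genes by their strongest Hdac1 end island, with a value of 3.81e-35.

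By each gene's strongest Hdac1 end island, Zbtb3 and Zbtb6 stood lowest, and neither gene had Hdac2 at an end. Weaker second islands lay at the ends of Zbtb11 (rank 29843) and Zbtb39 (rank 24102), both genes with a stronger Hdac1 island and with Hdac2. The island at Zbtb3 was 1.2 kb wide with a value of 7.35e-11 at rank 20204, and Zbtb3 was the 1 gene whose strongest end island lay in the weaker 50% of the Hdac1 list. Zbtb6 and Zbtb26 lie side by side and share an Hdac1 island of 1.8 kb (chr2:37430201-37432000, value 9.90e-32, rank 9637), which covers the 5′ end of Zbtb6 and the 3′ end of Zbtb26. The stronger island of Zbtb26 was at its own 5′ end (1.8 kb, value 3.83e-43, rank 7466) and also lay at an end of Rabgap1.

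**Figure D2:**
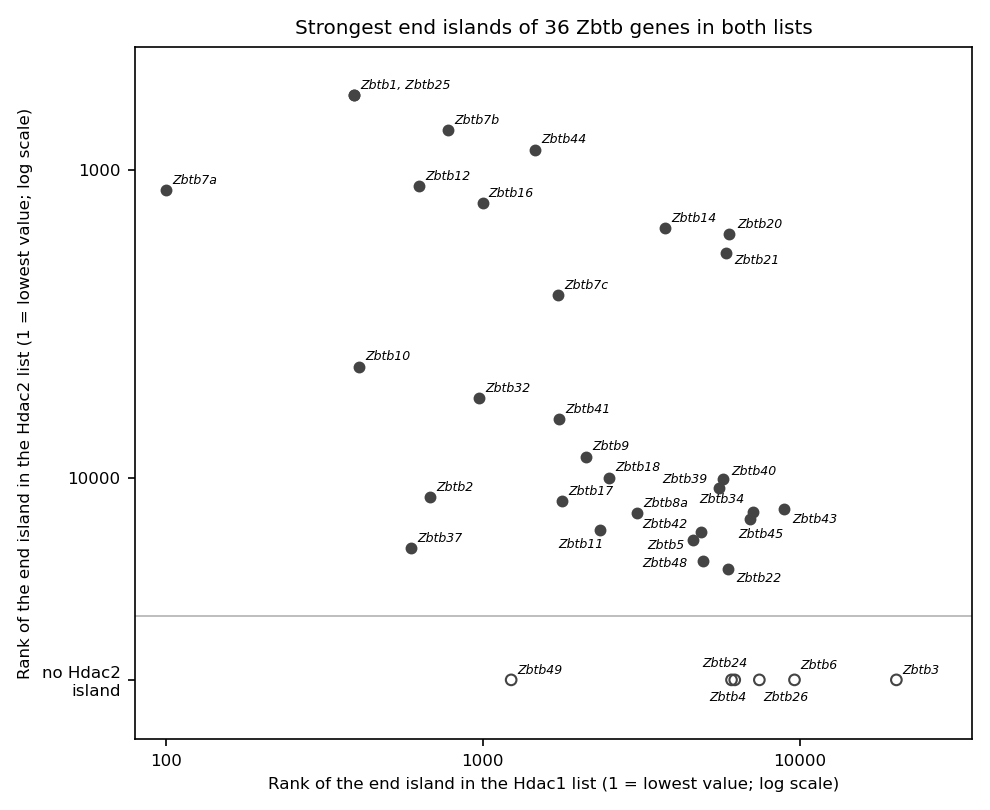
Rank of each gene's strongest end island in the Hdac1 list (horizontal) against its rank in the Hdac2 list (vertical), both on log scales with 1 as the lowest value; open circles on the lowest line are the 6 genes with no Hdac2 island. Zbtb7a, Zbtb1, Zbtb25, Zbtb7b, Zbtb44, Zbtb12 and Zbtb16 stand high in both lists, while Zbtb2 and Zbtb37 stand high for Hdac1 and below rank 10000 for Hdac2.

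By median rank the Zbtb genes stood above genes with an end island in general. The gap was large for Hdac1 (2787.5 against 6165.5) and small for Hdac2 (9219.5 against 10206.5). Their share in the strongest 10% was above that of all genes in both lists. Their strongest Hdac1 end islands had ranks from 100 to 20204 with a median of 2787.5, and 18 of 36 were in the strongest 10% of the list, against 26.2% of all genes with such an island. The Hdac2 ranks ran from 574 to 19744 with a median of 9219.5, and 10 of 30 were in the strongest 10%, against 13.9%. In the weaker 50% of the Hdac2 list were 13 of 30, against 50.3%. The Hdac1 islands were 1.2 to 8.2 kb wide with a median of 2.9 kb (all genes 2.4 kb), and the Hdac2 islands 1.0 to 6.2 kb with a median of 2.4 kb (all genes 2.4 kb).

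By their medians, genes with both islands had stronger and wider Hdac1 islands than genes with Hdac1 alone. Among Zbtb genes the median Hdac1 rank was 2229 with both and 6854.5 with Hdac1 alone, and the median width 3.0 against 1.8 kb. Over all genes the medians were 3794.5 and 9400 for rank, and the same 3.0 and 1.8 kb for width. Among the 6 with Hdac1 alone, Zbtb49 at rank 1230 stood above the median rank of genes with both, and Zbtb4 at 4.2 kb above their median width. Over the 30 genes with both, Spearman's rho between the ranks was 0.547 and between the widths 0.752; the points share the 2 libraries and, at Zbtb1 and Zbtb25, the islands, so these are descriptions.

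The strongest islands of the lists overlapped each other at 27 of the 30 genes. Of these 27 the Hdac1 island was the wider at 20 (67.5% of all genes with overlapping pairs), the Hdac2 island at 6, and at 1 the widths were equal. At Zbtb12, Zbtb41 and Zbtb22 they did not overlap: the strongest Hdac1 island lay at the 3′ end, beside Ehmt2, Aspm and Tapbp. Over all genes with both, 3.66% had strongest islands that did not overlap. At Zbtb12 the Hdac1 island beside Ehmt2 (chr17:34897601-34901000) had a value of 5.14e-161 at rank 631. A second one over the whole of Zbtb12, a gene of 2.3 kb, was nearly as strong, at 1.15e-143 and rank 879, and the strongest Hdac2 island lay there (chr17:34894001-34896600, value 1.64e-18, rank 1132). Zbtb41 had an Hdac1 island of rank 1747 beside Aspm and one of 4.0 kb at its own 5′ end at rank 4850, where its Hdac2 island (rank 6419) lay. Zbtb22 had the weakest Hdac2 end island of the 30, with a value of 2.22e-03 at rank 19744, over its 5′ end beside Daxx. Its Hdac1 islands were at rank 5925 at the 3′ end and at rank 9992 at the 5′ end.

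Several end islands cannot be assigned to a Zbtb gene alone. Of the 36 genes with Hdac1, 17 had an end island that also touched within 1 kb of another protein-coding gene's end, and at 12 all end islands did (47.2% and 33.3%, against 32.6% and 28.0% of all genes with an Hdac1 end island). For Hdac2 these numbers were 10 and 9 of 30, against 32.5% and 30.9% of all genes with an Hdac2 end island. Where the strand was given, 30 Hdac1 end islands lay at the 5′ end, 8 at the 3′ end and 1 at both ends; for Hdac2 they were 23, 2 and 1. With islands at no other gene's end alone, 24 of the 39 genes had Hdac1 (61.5%, against 45.1% of all genes), 21 had Hdac2 (53.8%, against 23.1%) and 20 had both (51.3%, against 21.8%).

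Around a covered start site the Zbtb islands reached a median of 1.15 kb upstream and 1.42 kb downstream for Hdac1 (all genes 0.908 and 1.32 kb). For Hdac2 they reached 1.15 kb upstream and 1.13 kb downstream (all genes 0.964 and 1.26 kb). The Hdac1 island reached further downstream than upstream at 15 of 29 genes (68.4% of all genes) and the Hdac2 island at 13 of 23 (60.5%).

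The covered start sites were mostly those rich in CpG, in the Zbtb genes and in all genes. Start sites with both islands had a median of 31 CpG in the 300 bases (29 start sites, 8 to 56), those with Hdac1 alone 19 (7 start sites, 9 to 36), and those with neither 3 (11 start sites, 1 to 12). Of those with neither, only that of Zbtb38 lay at the annotated 5′ end. The others lay 2302 to 371595 bp inside the gene. Some covered start sites lay inside too, at 11825 and 12230 bp in Zbtb38 and 2367 bp in Zbtb11. CpG number and distance from the 5′ end were not separated. Among start sites with 30 or more CpG all 18 had Hdac1 and 17 had Hdac2, against 99.1% and 70.7% of such start sites in all genes. With 20 to 29 CpG the numbers were 11 and 9 of 11, against 96.8% and 50.8%. With 10 to 19 CpG they were 5 and 2 of 7, against 84.5% and 33.5%, and with 9 or fewer 2 and 1 of 11, against 15.3% and 6.39%. At 20 or more CpG the Hdac1 shares of Zbtb genes and of all genes were thus nearly the same, while the Hdac2 shares of Zbtb genes were the higher ones. Some of these start sites lie under the same island of each list, so they are not separate observations. This holds within Zbtb14, within Zbtb17, for the inner start sites of Zbtb38, and for Zbtb1 with Zbtb25. Over all 47 start sites 76.6% had Hdac1 and 61.7% Hdac2, against 60.3% and 31.7% of the start sites of all genes. The first window of a gene is that of its start site nearest the annotated 5′ end. The Zbtb genes' first windows held a median of 25.5 CpG, against 14 in all genes, and their GC content was 66.3%, against 56.7%.

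**Figure D3:**
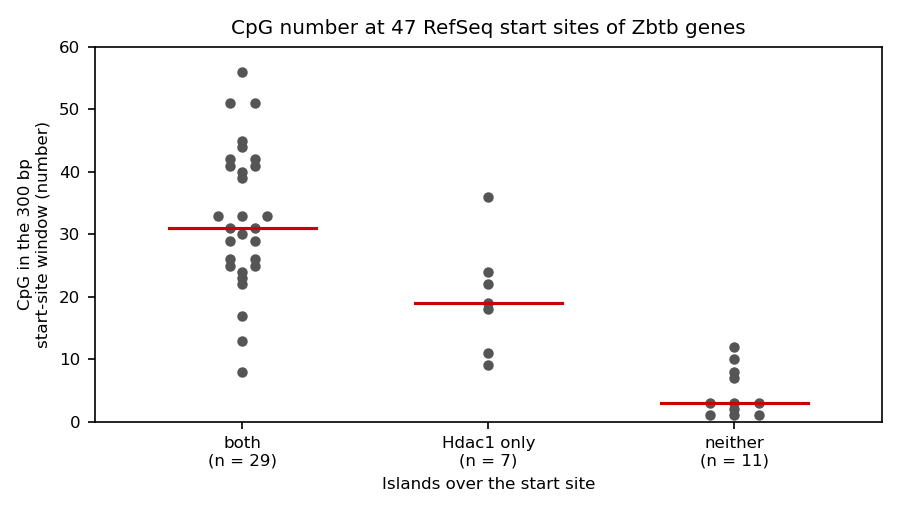
Number of CpG in the 300 bases of each of the 47 start-site windows of Zbtb genes, grouped by the islands that cover the start site; each point is a start site and the red lines are medians. Start sites with both islands hold 8 to 56 CpG, and those with neither 1 to 12. Except in Zbtb38, the latter lie 2302 bp or more inside the annotated 5′ end.

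Of the 8 genes with more than 1 start site, Zbtb18, Zbtb38 and Zbtb7b had both covered and uncovered ones. In Zbtb18 the outermost of 5 start sites, with 51 CpG, was covered by both islands, and the other 4, with 1 to 3 CpG, by neither. In Zbtb38 the start site at the 5′ end, with 8 CpG, was uncovered. The 2 start sites about 12 kb inside the gene, with 25 and 41 CpG, lay under an Hdac1 island of 1.2 kb (value 1.93e-34, rank 9043) and an Hdac2 island of 0.8 kb (value 9.85e-10, rank 7544). Zbtb38 thus counts among the genes with neither island at an end, while 2 of its 3 start sites were covered by both. In Zbtb7b the covered start site holds 8 CpG and the uncovered one 7. Start sites of 1 gene can lie close together and share part of their window, as in Zbtb17 and Zbtb3.

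Of the motifs counted in the first window of each gene, the GC box was found in 24 of 34 Zbtb genes (70.6%), against 47.3% of all genes. It was in 19 of the 23 whose first window was covered by both islands, 5 of the 6 with Hdac1 alone and 0 of the 5 with neither. In all genes the shares were 74.4%, 64.6% and 13.2%. Of the 5 with neither, only the window of Zbtb38 was at the annotated 5′ end. The start sites of Zbtb20, Zbtb46, Zbtb8b and Zbtb32 lay 371595, 68874, 6151 and 3910 bp inside the gene. Zbtb20 had both islands over its annotated 5′ end. The Ets motif was in 10 (29.4%), against 12.3%, and the E-box in 5 (14.7%), against 7.97%. CCAAT was in 13 (38.2%), against 39.1%. The Nrf1 motif was in 2 (5.88%), against 1.37%. The TATA motif TATAAA was in 1, Zbtb43 (2.94%), against 13.5%, and the CGCG element, a palindrome found in CpG-rich promoters, was in 0, against 0.723%. A match is only a run of letters, and the GC box, the Ets motif, the E-box, the Nrf1 motif and the CGCG element contain CpG themselves.

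Inner islands, more than 1 kb from both ends, were found in 8 Zbtb genes for Hdac1 (20.5%, against 21.1% of all genes) and in 6 for Hdac2 (15.4%, against 13.7%), shares near the background. Most of them lay in the longest of these genes. Zbtb20, which spans 758.7 kb, held 14 Hdac1 and 6 Hdac2 islands, of which 13 and 5 were inner. The broadest inner Hdac1 island was 6.0 kb (chr16:43360201-43366200, value 4.30e-30, rank 10024), and an Hdac2 island with the same start (1.6 kb, value 2.51e-16) stood at rank 1644, next to the end island's rank of 1612. Zbtb16, of 184.4 kb, held 7 inner Hdac1 islands of 1.2 to 4.4 kb and 3 inner Hdac2 islands, each of which overlapped an Hdac1 island. Zbtb7c, of 328.4 kb, held 5 and 2, and the broadest of each list, 5.4 kb wide for Hdac1 and 4.8 kb for Hdac2, overlapped each other.

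Zbtb46 had its islands inside the gene and not at its ends. The stronger Hdac1 island (chr2:181456601-181461400) was 4.8 kb wide with a value of 6.40e-200 at rank 324, which only the end island of Zbtb7a exceeded among Zbtb genes. An Hdac2 island of 3.8 kb (value 4.30e-10, rank 6918) lay over most of it. Nearer the annotated 5′ end, 3.662 kb from it, was an Hdac1 island of 4.0 kb (value 2.41e-24, rank 11709) with an Hdac2 island of 3.0 kb (value 2.78e-11, rank 5171). The only start site of Zbtb46 in the RefSeq table, whose window is printed above, was covered by none of them.

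**Figure D4:**
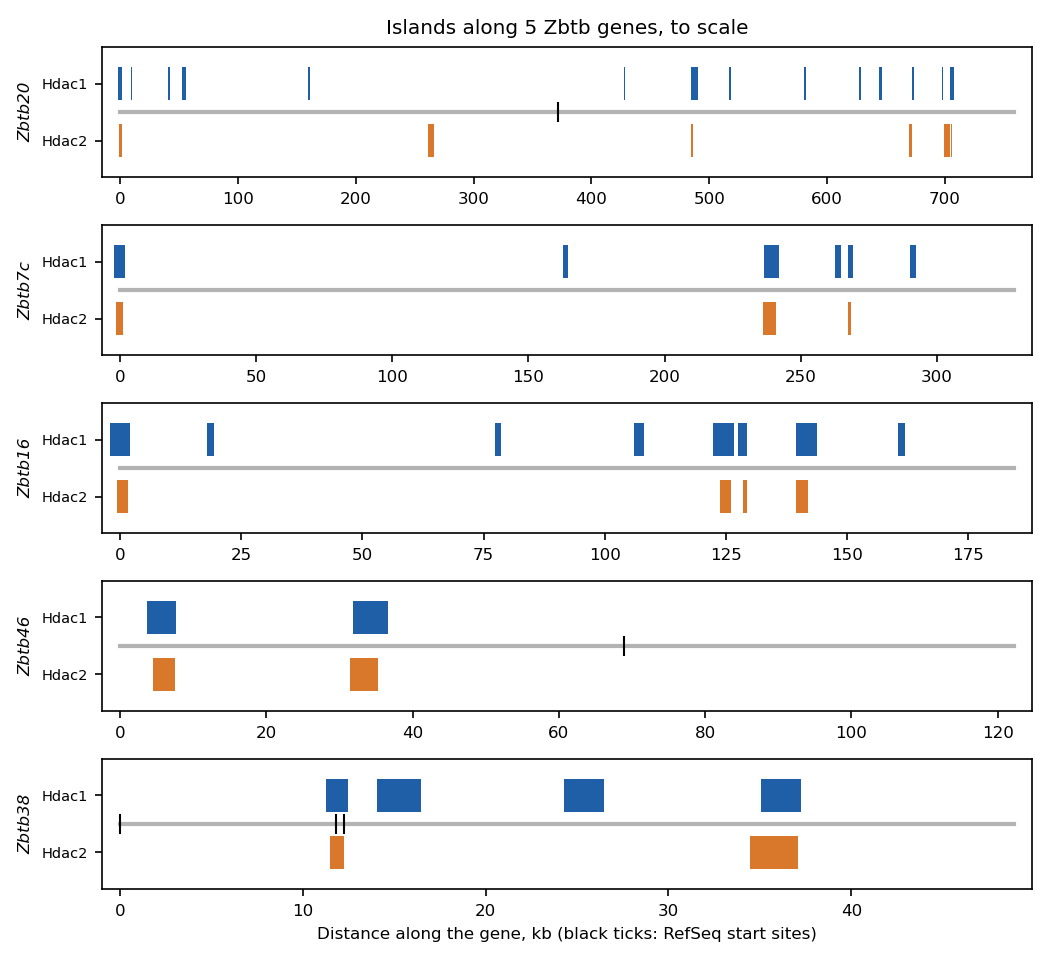
Islands along Zbtb20, Zbtb7c, Zbtb16, Zbtb46 and Zbtb38, drawn to scale for each gene; the horizontal axes give kb from the 5′ end, or, for Zbtb7c and Zbtb16 whose strand was not in the table, from the end that carries the end island. Blue bars are Hdac1 islands, orange bars Hdac2 islands, black ticks RefSeq start sites and grey lines the gene; Zbtb46 and Zbtb38 have bars only away from position 0.

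Within 100 kb of the 39 genes lay 295 distinct Hdac1 and 131 distinct Hdac2 islands. A Zbtb gene had a median of 8 Hdac1 islands (2 to 16) covering 19.8 kb (3.6 to 47.6 kb), against 10.2 kb over all genes. For Hdac2 the median was 3 islands (1 to 9) covering 8.4 kb (2.8 to 30.6 kb), against 6.17 kb. The largest Hdac1 coverage was at Zbtb3 (47.6 kb), Zbtb4 (44.0 kb), Zbtb7b (41.8 kb), Zbtb7a (36.8 kb) and Zbtb22 (35.2 kb). Zbtb3, lowest of the 36 genes by its strongest Hdac1 end island, thus had the most Hdac1 around it. The largest Hdac2 coverage was at Zbtb20 (30.6 kb, with its long gene inside the span), Zbtb7b (23.4 kb), Zbtb22 (20.6 kb), and Zbtb1 and Zbtb25 (19.6 kb each). Zbtb18 had the least in both lists, with 3.6 and 2.8 kb; its end islands of 2.8 kb made up most of the former and all of the latter.

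End islands and the islands around them differed in rank and in overlap with the other list. The 42 distinct Hdac1 end islands had a median rank of 4733, the 226 outside the genes 8914 and the 34 inner ones 18959.5. An Hdac2 island overlapped 31 of the 42 (73.8%), 79 of the 226 (35.0%) and 13 of the 34 (38.2%), against 40.2% of all Hdac1 islands on chromosomes 1 to 19. Among Hdac2 islands the order of the ranks was another: the 15 inner ones had a median rank of 7544, the 30 end islands 10000 and the 90 outside 11637. All 30 end islands, 13 of the 15 inner ones (86.7%) and 80 of the 90 outside (88.9%) overlapped Hdac1, against 61.6% of all Hdac2 islands. The shares of all islands include islands at any place, not only at gene ends. Counted by gene, 6698 of the 6906 genes with an Hdac2 end island had an Hdac1 end island too. Of all genes with an Hdac1 end island 51.7% had both, against 83.3% of such Zbtb genes. An island that is an end island of 1 member and lies near another counts in both places.

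Related gene families give a scale for these counts. Of 8 BTB zinc finger genes with other names, all had Hdac1 at an end and 5 had Hdac2, which was missing at Bcl6b, Hic2 and Zfp131. Of 33 Klhl genes, which have a BTB domain and no zinc fingers, 25 (75.8%) had Hdac1 and 15 (45.5%) Hdac2. Of 360 Zfp genes, mostly zinc finger genes without a BTB domain, 299 (83.1%) had Hdac1 and 125 (34.7%) Hdac2. Of 16 Klf genes 15 (93.8%) had Hdac1 and 12 (75.0%) Hdac2, shares close to those of the Zbtb genes.

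**Figure D5:**
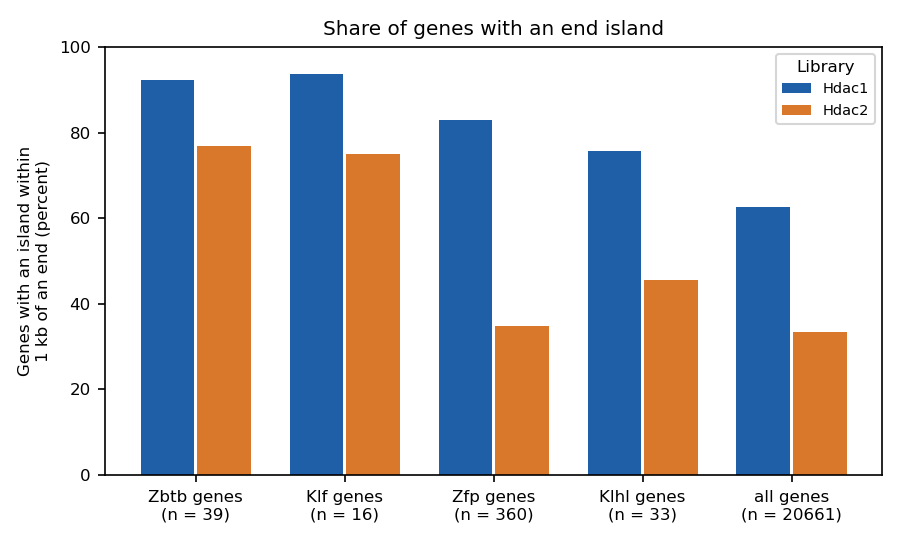
Share of genes, in percent, with an Hdac1 island (blue) and an Hdac2 island (orange) within 1 kb of a gene end, for the Zbtb genes, other gene families and all protein-coding genes of chromosomes 1 to 19. The Zbtb genes stand at 92.3% and 76.9%, the Zfp genes at 83.1% and 34.7%, and all genes at 62.6% and 33.4%.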

How the data were processed

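Hdac1 and Hdac2 chromatin immunoprecipitation of E16.5 mouse nephron progenitor cells was sequenced, with 1 library per antibody and therefore no replicates. Build mm10 and SICER are named in the submitters' processing notes, with BWA 0.7.5a, bedtools 2.17, SAMtools 1.3.1 and FastQC. SICER merges neighbouring enriched windows into islands with coarse edges; its version, settings and background library, the read depth and any pooling were not given in the sources used here. For each island the authors deposited a position and a p-value or q-value, with nothing stating which. The IgG and H3K4me3 immunoprecipitations were not analysed here.

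File positions count from 0 with the last base included, and are printed 1-based. Gene spans, start-site windows and their sequences are from RefSeq (GRCm38.p6, the assembly of mm10). The RefSeq gene table gives no strand; strand came from the start-site windows, where present. An island was at a gene end when at least 1 bp lay within 1 kb of either end, inner when it touched the gene but neither end window, and otherwise counted within 100 kb. Where a gene had several end islands, that of lowest value is printed. Counts and medians were computed with Python 3.11.15, pandas 2.3.3 and numpy 2.4.6, and checked with bedtools 2.31.1. In simulated lists with islands planted at 200 of the 20661 genes, all 200 were recovered for each antibody.

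The members, gene lists and motifs were chosen with earlier results of these data known. Members described in full were those highest, broadest and lowest by their strongest end island, with none, with islands that do not overlap, and with the most bases covered within 100 kb; every member is named. A list of corepressor genes is not reported here. Alternatives were a stricter list, other windows, overlaps and distances, merged islands, the 5′ end alone, and, added after the data were seen, islands at no other gene's end.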

Additional observations from a re-analysis of the deposited data

How the results depend on the processing

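Of 45 recomputed values 40 stayed within set limits of the reported ones. The limit was 1.5 times for counts and, for medians, the 95% binomial interval of the median over the Zbtb genes. Among these 40, counts with islands at no other gene's end fell from 36 to 24 for Hdac1, 30 to 21 for Hdac2 and 30 to 20 for both. Those for Hdac1 and for both were exactly at the limit. The other 5 values moved beyond the limits. With only the upper 50% of each list, Hdac2 lay at an end of 17 of the 39 genes (16.6% of all genes), both lay at 17 (15.8%), Hdac2 touched 19 genes (21.9%), and the median Hdac2 coverage within 100 kb was 3.4 kb (2.4 kb over all genes). Within 50 kb in place of 100 kb the median Hdac1 coverage was 12.4 kb (6.0 kb). Fewer islands and a shorter span set these values by construction. With windows of 500 bp or 2 kb, merged islands, or 200 bp of overlap, the counts were 36 for Hdac1, 30 for Hdac2 and 30 for both each time. No paired analysis was possible because each antibody has 1 library and no test was made. The read depth is unknown, so a gene without an island cannot be told from one whose signal was not detectable, and ranks from lists of different length are not a change between antibodies.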

Other observations

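Zbtb33, which encodes Kaiso, lies on the X chromosome and so outside the 39 genes. It had an Hdac1 island of 1.4 kb at a gene end (value 1.58e-48, rank 6633) and no Hdac2 island at its ends or within 100 kb. Its relatives in binding methylated DNA, Zbtb4 and Zbtb38, had no Hdac2 island at an end. Most genes had none there: an Hdac2 end island was found at 33.4% of all genes, and at 76.9% of the Zbtb genes. Zbtb38 had Hdac2 islands only inside the gene, and that of 0.8 kb covered its start sites with 25 and 41 CpG.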
